A study of Rattus norvegicus with 30 samples.

Results

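The genes described here are Sox9, Sox11, Scx, Runx3, Creb3l1 and Hic1, 6 genes that encode transcription factors. They were chosen by name, with earlier results of these data known. They are 6 of the 9999 gene names in the files, and all 6 are among the 4363 genes that were tested. Their RNA was measured by sequencing in mesenchymal stem cells from the bone marrow of Sprague Dawley rats, 3 females aged 3 weeks, used at passage 2. Cells were sampled undifferentiated (0 h) or after 3, 12 or 72 h in osteogenic, adipogenic or chondrogenic differentiation medium, commercial media whose agents the study does not list. Each of the 10 groups had 3 samples, 30 in all, and each sample was RNA pooled from 3 cultures. The paper speaks of 3 independent experiments but does not say whether the samples of a group came from different rats. The tests below rest on the spread between samples, which may not be the spread between rats. The 0 h samples served as the shared control of all 9 induced groups, and no uninduced cells were kept alongside for the same times, so time in culture and induction cannot be told apart.

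Sox9 is the factor that chondrocytes need to form and to express their collagen and proteoglycan genes, and Sox11 is a member of another branch of the same family, active in embryonic progenitors. Scx marks tendon progenitors and cells where tendon meets cartilage, and Runx3 acts with Runx2 in the maturation of chondrocytes. Creb3l1 sits in the membrane of the endoplasmic reticulum until it is cut free, and then turns on genes for collagen secretion in bone-forming cells, while Hic1 is a repressor found in quiescent mesenchymal progenitors of several tissues.

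Values are named FPKM in the files and are treated here as CPM, the whole reads of a gene scaled to a total of 1e6 reads in each sample, with no correction for gene length, so levels are compared between samples of 1 gene and not between genes. Read totals ran from 3899609 to 9046719 per sample, with a median of 6579543. The 3 chondrogenic 72 h samples were the shallowest, with 3899609 to 4523111 reads. A level of 3 reads, the limit that a count of 0 allows, was 0.332 to 0.769 CPM, and this covers counting error only. The phrase "past the threshold" means that limma gave a log2 value of 1 or more, up or down, together with an adjusted p (Benjamini-Hochberg, 4363 genes) under 0.05.

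Some libraries stood apart from their replicates. In the adipogenic 72 h replicate 3, 74 tested genes lay over 2 log2 units from the mean of the other replicates. Of its reads, 38.9% fell on the listed genes, the lowest share of the 30. The adipogenic 12 h replicate 1 had 24 such genes, the osteogenic 3 h replicate 3 had 18, and the adipogenic 72 h replicates 1 and 2 had 13 each.

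Of the 11 markers of bone marrow mesenchymal stem cells, 7 were in the files. Thy1 (387 to 8279.7 CPM), Cd44 (258 to 2014 CPM) and Itgb1 (3311 to 15548 CPM) had reads in all 30 samples. Eng was at 0 in 21 samples, Vcam1 in 28, Pdgfra in 13 and Pdgfrb in 11, and none of these 4 exceeded 1.82 CPM. Thus 4 of the 7 listed markers in the files were absent or close to absent. The list is not taken from the paper, which stained induced cells for differentiation into the 3 lineages. The summed level of the other lists was at most 4.08 CPM for haematopoietic cells, 7.08 CPM for endothelial cells, 10.8 CPM for muscle cells and 12.4 CPM for Schwann cells, the last led by Ngfr. These sums moved with the groups. The muscle list had 0.143 to 1.11 CPM in undifferentiated samples and 6.70 to 10.8 CPM in the chondrogenic 3 and 12 h samples. It had 7.62 to 8.53 CPM in the osteogenic 12 h and 3.87 to 5.33 CPM in the osteogenic 3 h samples. In the adipogenic 3 h samples it had 4.72 to 6.63 CPM, and in the chondrogenic 72 h samples 2.05 to 3.54 CPM. The haematopoietic list had 0 to 0.418 CPM in undifferentiated and 2.38 to 4.08 CPM in adipogenic 72 h samples. The endothelial list had 3.34 to 4.74 CPM in undifferentiated, 2.22 to 2.49 CPM in chondrogenic 12 h and 0.904 to 2.24 CPM in osteogenic 12 h samples. It had 5.46 to 7.08 CPM in osteogenic 72 h samples. The Schwann list had 0.139 to 0.573 CPM in undifferentiated samples and 10.03 to 12.4 CPM in the osteogenic and adipogenic 3 h samples, with 4.35 to 5.53 CPM in the chondrogenic 3 h and 6.43 to 7.08 CPM in the osteogenic 12 h samples. The stem cell list summed to 16085 to 16892 CPM in undifferentiated samples, 21323 to 23217 CPM in osteogenic samples at 3 h, 4112 to 4779 CPM in adipogenic and 9106 to 9584 CPM in chondrogenic samples at 72 h. Their part in the results below was not tested. In bulk samples, fewer cells of a type and less RNA per cell cannot be told apart.

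The comparison of each induced group with undifferentiated cells asks which genes had moved by that time. In chondrogenesis, 6 of the 6 genes were higher past the threshold at 3 h, where 13.1% of all tested genes were higher. At 12 h the count was again 6 of 6, against 9.44% of all genes, and at 72 h 6 of 6, against 11.6%. The paper had already listed each of the 6 genes as changed in chondrogenesis at some or all of these times. These counts are therefore no test of the set. The 72 h count was 5 or 6 with 1 library left out, and Sox11 there passed in 11 of 15 other settings. The median log2 fold change of the 6 was 2.38, 2.09 and 2.29 at the 3 times, beside 0.21, 0.11 and 0.01 for all tested genes. Scaling by median ratios lowered the fold changes in chondrogenesis by a median of 0.26, 0.18 and 0.03. Over the 9 comparisons with 0 h the shift ran from -0.26 (chondrogenic 3 h) to 0.17 (adipogenic 72 h). Under that scaling Creb3l1 fell below the threshold at 3 h, as given below, and the direction of all 6 genes was the same in the 3 chondrogenic comparisons under each scaling tried.

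The other lineages moved fewer of the 6 genes. In osteogenesis 3 of 6 passed at 3 h (Sox9, Sox11 and Runx3, all higher), where 18.4% of tested genes passed in either direction. Sox9, lower, was the only 1 of 6 at 12 h, against 21.8% of all genes. At 72 h 2 of 6 passed (Hic1 higher, Scx lower), against 12.5%. In adipogenesis 1 of 6 passed at 3 h (Sox9, lower), where the share of all genes was 18.8%. At 12 h 4 of 6 passed (Creb3l1 and Hic1 higher, Sox9 and Scx lower), against 13.7%, and at 72 h 3 of 6 (Hic1 higher, Sox9 and Scx lower), against 15.3%. Leaving out 1 library moved 3 of these counts by over 1.5 times. The osteogenic 12 h count was 2 without the undifferentiated replicate 1 or the osteogenic 12 h replicate 2, the adipogenic 3 h count 2 without its replicate 3, and the adipogenic 72 h count 5 without the undifferentiated replicate 2. By edgeR these 3 counts were 2, 3 and 5. Thus Sox9, Sox11 and Runx3 (osteogenic 3 h), Creb3l1 (adipogenic 12 h) and Hic1 also rose past the threshold outside chondrogenesis. The osteogenic call of Sox9 at 3 h was lost under the other scalings, as given below.

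**Figure D1:**
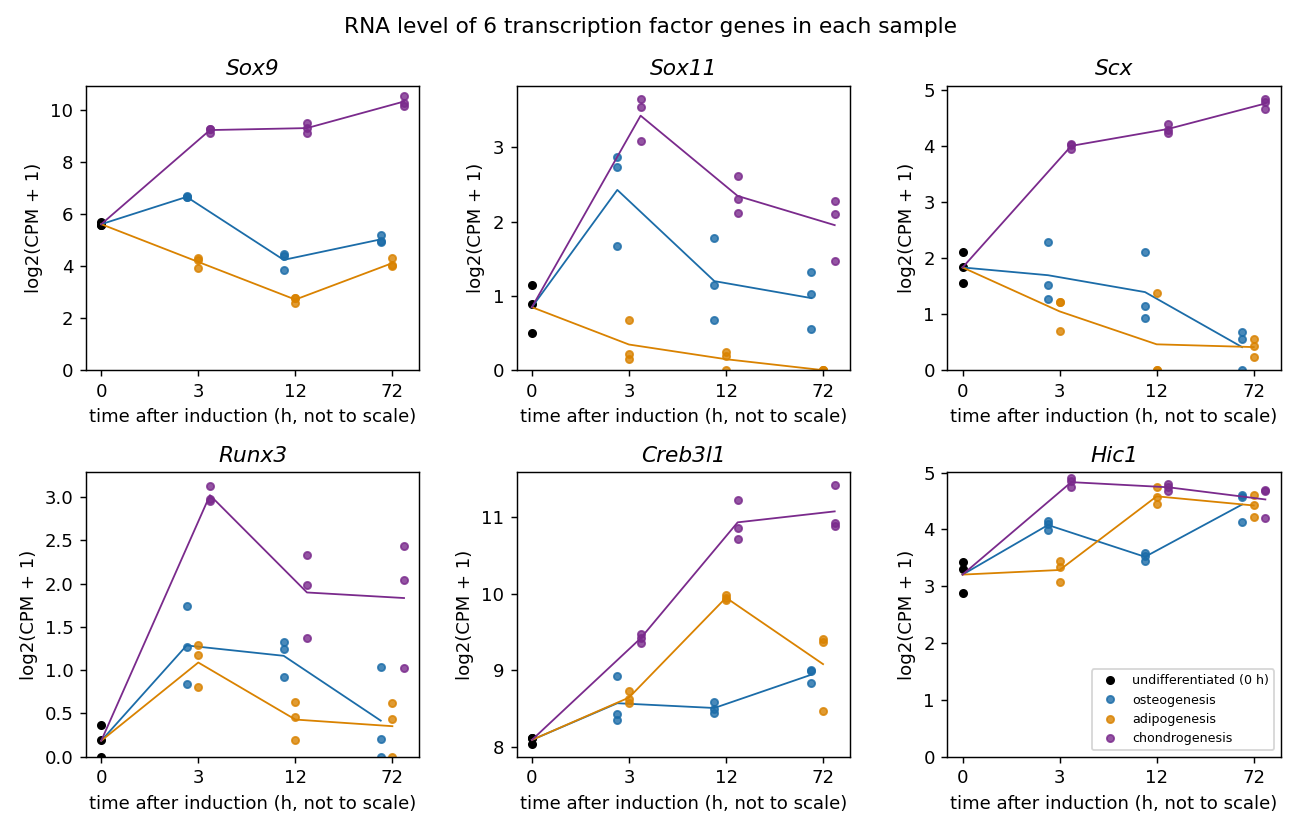
RNA level of the 6 genes in each of the 30 samples, as log2(CPM + 1), against the time after induction in h (not to scale). Points are samples, 3 per group, and lines join the group means. The chondrogenic samples of Sox9 and Scx lie above all other samples at each time.

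Sox9 had 46.6, 46.8 and 50.8 CPM in the undifferentiated replicates 1 to 3. In chondrogenesis it had 622, 627 and 561 CPM at 3 h, 632, 718 and 564 CPM at 12 h, and 1489, 1256 and 1152 CPM at 72 h. Every chondrogenic sample lay above every other sample of the series. Osteogenic samples had 99.2, 99.5 and 102.9 CPM at 3 h, then 20.2, 21.2 and 13.4 CPM at 12 h and 35.7, 29.6 and 30.1 CPM at 72 h. These groups crossed the undifferentiated level, above it at 3 h and below it later, with no overlap at any of the 3 times. Adipogenic samples had 19.0, 17.6 and 14.4 CPM at 3 h, 5.85, 5.89 and 4.995 CPM at 12 h, and 15.0, 15.4 and 19.0 CPM at 72 h, all below every undifferentiated sample.

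Against undifferentiated cells, the log2 fold change of Sox9 in chondrogenesis was 3.62, 3.70 and 4.72 (SE 0.14 each) at 3, 12 and 72 h, with limma adjusted p of 2.69e-18, 1.09e-18 and 1.74e-21, higher in 3 of 3 samples each time. In adipogenesis it was -1.45, -2.90 and -1.50, with adjusted p of 1.28e-09, 4.96e-16 and 7.90e-10, lower in 3 of 3 samples each time. In osteogenesis it was 1.05 at 3 h (adjusted p 4.51e-07), -1.37 at 12 h (adjusted p 2.65e-09) and -0.58 at 72 h (adjusted p 0.00212), the last short of the size threshold. The osteogenic rise at 3 h lay near the threshold and was 0.81 under median-ratio scaling, 0.69 under quantile normalization and 0.82 in edgeR, each below it. From the lowest, the order of the group means was adipogenic 12 h (5.58 CPM), adipogenic 72 h (16.5), adipogenic 3 h (17.0), osteogenic 12 h (18.3), osteogenic 72 h (31.8), undifferentiated (48.1), osteogenic 3 h (100.5), chondrogenic 3 h (603), chondrogenic 12 h (638) and chondrogenic 72 h (1299). Neighbours overlapped in range between adipogenic 72 h, adipogenic 3 h and osteogenic 12 h, and between chondrogenic 3 h and 12 h, and in no other place of that order.

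Sox9 also moved between time points. In osteogenesis it fell by 2.42 (log2) from 3 to 12 h and rose by 0.79 from 12 to 72 h. In adipogenesis it fell by 1.45 and then rose by 1.40. In chondrogenesis the step from 3 to 12 h was 0.08 (limma adjusted p 0.794), and that from 12 to 72 h was 1.02 (adjusted p 1.15e-06). This last step fell below the threshold size without the chondrogenic 12 h replicate 3 (0.94) or the chondrogenic 72 h replicate 1 (0.92). Tested directly, chondrogenic exceeded adipogenic samples by 5.07, 6.60 and 6.22 at 3, 12 and 72 h, and osteogenic samples by 2.57, 5.07 and 5.30, all with SE 0.14 and adjusted p of 1.89e-14 or less. Osteogenic exceeded adipogenic samples by 2.50, 1.53 and 0.91, the last short of the threshold in size but 1.01 and past it without the adipogenic 72 h replicate 3.

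Scx encodes a helix-loop-helix factor. It had 3.29, 1.95 and 2.58 CPM in the undifferentiated replicates. In chondrogenesis it had 15.4, 15.3 and 14.5 CPM at 3 h, 20.1, 18.5 and 17.9 CPM at 12 h, and 26.7, 24.3 and 27.6 CPM at 72 h. The 3 chondrogenic groups did not overlap each other or any other group. Osteogenic samples had 1.88, 1.42 and 3.87 CPM at 3 h, 3.31, 0.897 and 1.22 CPM at 12 h, and 0, 0.468 and 0.603 CPM at 72 h. Adipogenic samples had 1.33, 0.629 and 1.34 CPM at 3 h, 1.61, 0 and 0 CPM at 12 h, and 0.356, 0.177 and 0.475 CPM at 72 h. The osteogenic groups at 3 and 12 h overlapped the undifferentiated samples, whereas the osteogenic 72 h group and the 3 adipogenic groups lay below them.

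The log2 fold change of Scx over undifferentiated cells was 2.17, 2.47 and 2.93 (SE 0.33 each) in chondrogenesis, with limma adjusted p of 2.36e-06, 3.60e-07 and 1.28e-08, higher in 3 of 3 samples each time. It was -1.42 in osteogenesis at 72 h (adjusted p 0.00108), from 7 reads in all against 54. In adipogenesis it was -0.78 at 3 h (adjusted p 0.0523), -1.37 at 12 h (adjusted p 0.00126) and -1.42 at 72 h (adjusted p 0.000848). The adipogenic 12 h group held 11 reads, all in replicate 1, and the fold change was -1.83 without it. A fit on the 6 samples alone did not pass for that group, with adjusted p of 0.0593, in a range over all settings from 2.90e-05 to 0.0593. Chondrogenic exceeded adipogenic samples by 2.96, 3.85 and 4.35 (log2), and osteogenic samples by 2.31, 2.91 and 4.35, all past the threshold. Without the adipogenic 12 h replicate 1 the second of these was 4.31, and without the adipogenic 72 h replicate 3 the third was 4.43. No step between time points passed for Scx, with values from -0.98 (osteogenic, 12 to 72 h) to 0.45 (chondrogenic, 12 to 72 h), and the osteogenic step was past the threshold in 8 of 15 other settings. Among these were the fits without the osteogenic 12 h replicates 2 (-1.22) or 3 (-1.10) or the osteogenic 72 h replicates 2 (-1.05) or 3 (-1.12), while without the osteogenic 12 h replicate 1, which held 22 reads beside 6 and 8, the step was -0.63. The adipogenic step from 3 to 12 h was -0.59. It was -1.05 and past the threshold without the adipogenic 12 h replicate 1, and -0.36 without its replicates 2 or 3. Osteogenic over adipogenic samples at 12 h gave 0.93, which passed without the adipogenic 12 h replicate 1 (1.39) or the osteogenic 12 h replicates 2 (1.17) or 3 (1.06) and was 0.58 without the osteogenic 12 h replicate 1.

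In order of the means, Scx ran from adipogenic 72 h (0.336 CPM) through osteogenic 72 h (0.357), adipogenic 12 h (0.536), adipogenic 3 h (1.10), osteogenic 12 h (1.81), osteogenic 3 h (2.39) and undifferentiated (2.61) to chondrogenic 3 h (15.1), 12 h (18.8) and 72 h (26.2). All neighbours from the lowest up to the undifferentiated group overlapped, and none above it did. In RefSeq the Scx gene overlaps another gene, Bop1, and the strand used in counting is not stated. Bop1 had mean levels of 82.1 CPM undifferentiated, 274, 207 and 106 CPM in chondrogenesis, 269.8 CPM in adipogenesis at 3 h and 320.02 CPM in osteogenesis at 3 h. At 3 and 12 h of chondrogenesis its log2 fold change was 1.73 and 1.33, both past the threshold, where Scx also rose (2.17 and 2.47). At 72 h of chondrogenesis it was 0.37, where that of Scx was 2.93. At 3 h it was 1.71 in adipogenesis and 1.94 in osteogenesis, where that of Scx was -0.78 and -0.14, the last -0.43 without the osteogenic 3 h replicate 3.

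Sox11 had few reads in most samples, 3 to 8 in each undifferentiated one. Its levels there were 0.859, 0.418 and 1.21 CPM. In chondrogenesis it had 11.5, 10.7 and 7.50 CPM at 3 h, 3.32, 5.14 and 3.96 CPM at 12 h, and 3.85, 3.32 and 1.78 CPM at 72 h, so all 9 samples lay above the undifferentiated ones and the 3 h group above the rest of the series. Osteogenic samples had 2.19, 6.32 and 5.67 CPM at 3 h, 1.21, 0.598 and 2.44 CPM at 12 h, and 1.04, 0.468 and 1.51 CPM at 72 h. Replicate 1 was the low one at 3 h, and the 2 later groups overlapped the undifferentiated samples. Adipogenic samples had 0.111, 0.157 and 0.595 CPM at 3 h, 0.146, 0 and 0.185 CPM at 12 h, and 0 in all 3 samples at 72 h. The adipogenic 12 h and 72 h groups lay below every undifferentiated sample. With 3 reads over the group in place of 0, the 72 h level was 4.80-fold lower. This makes no allowance for counting error in the 17 undifferentiated reads.

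The log2 fold change of Sox11 over undifferentiated cells in chondrogenesis was 2.58, 1.499 and 1.11 (SE 0.31 each), with limma adjusted p of 4.42e-08, 0.000227 and 0.00482, higher in 3 of 3 samples each time. The 72 h value did not pass without the undifferentiated replicate 2 (0.93), without the chondrogenic 72 h replicate 1 (0.94), under quantile normalization (0.99) or with reads thinned to the lowest total (0.73). In osteogenesis it was 1.58 at 3 h (adjusted p 9.88e-05), 0.35 at 12 h (adjusted p 0.391) and 0.12 at 72 h (adjusted p 0.838). The rise at 3 h was followed by a fall by 1.23 to 12 h in osteogenesis and by 1.08 in chondrogenesis, which passed in 12 and 10 of 15 other settings. The osteogenic fall was -0.97 without the osteogenic 12 h replicate 2, and the chondrogenic fall was -0.97 without the 3 h replicate 1 and -0.96 without the 12 h replicate 1, below the threshold size each time. Chondrogenic exceeded adipogenic samples by 3.08, 2.20 and 1.95 (log2), all past the threshold. At 72 h the ratio in CPM was 17.2 with 3 reads in place of 0, without counting error in the 38 chondrogenic reads. Over osteogenic samples the differences were 1.0003, 1.15 and 0.98. The 3 h difference passed in 7 of 15 other settings, with values from 0.62 to 1.22, and not without the osteogenic 3 h replicate 1 (0.62) or the chondrogenic 3 h replicates 1 (0.89) or 2 (0.94). The 12 h difference did not pass without the osteogenic 12 h replicate 2 (0.89). The 72 h difference was short of the threshold, and past it without the osteogenic 72 h replicates 1 (1.01) or 3 (1.16) or the chondrogenic 72 h replicate 3 (1.22). Under median-ratio scaling it was 1.07 and also past the threshold. It passed in 6 of 15 other settings in all.

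For Sox11 the order of the means was adipogenic 72 h (0), adipogenic 12 h (0.110 CPM), adipogenic 3 h (0.288), undifferentiated (0.830), osteogenic 72 h (1.01), osteogenic 12 h (1.41), chondrogenic 72 h (2.98), chondrogenic 12 h (4.14), osteogenic 3 h (4.73) and chondrogenic 3 h (9.92). Every pair of neighbours overlapped except the last, osteogenic 3 h and chondrogenic 3 h. Osteogenic exceeded adipogenic samples by 2.08 at 3 h and 1.05 at 12 h (log2), both past the threshold, the second in 11 of 15 other settings. Without the adipogenic 12 h replicate 2 the second was 0.98, and without the osteogenic 12 h replicate 3 it was 0.76. At 72 h the difference was 0.97, and 1.18 and past the threshold without the osteogenic 72 h replicate 2. It passed in 3 of 15 other settings, with values from 0.79 to 5.78. The change from undifferentiated to adipogenic 72 h cells on the log2(CPM + 1) scale was -0.85 (limma adjusted p 0.0312), and -1.02 and past the threshold without the undifferentiated replicate 2. This change passed in 4 of 15 other settings, with values from -5.63 to -0.70. The adipogenic 72 h group held 0 reads of Sox11.

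Runx3 had 0.286, 0.139 and 0 CPM in the undifferentiated replicates, 3 reads in all. In chondrogenesis it had 6.74, 6.90 and 7.74 CPM at 3 h, 4.04, 2.96 and 1.58 CPM at 12 h, and 1.03, 4.42 and 3.11 CPM at 72 h. All 9 samples lay above the undifferentiated ones, and the 3 h group lay above every other sample. Osteogenic samples had 1.41, 0.790 and 2.35 CPM at 3 h, 1.51, 0.897 and 1.37 CPM at 12 h, and 0, 0.156 and 1.05 CPM at 72 h. Adipogenic samples had 1.44, 1.26 and 0.744 CPM at 3 h, 0.146, 0.552 and 0.370 CPM at 12 h, and 0.534, 0.355 and 0 CPM at 72 h. The osteogenic 3 h and 12 h and the adipogenic 3 h samples lay above the undifferentiated ones, and the other groups overlapped them.

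With 3 reads at 0 h, the ratio of Runx3 in chondrogenic to undifferentiated cells was 49.6 at 3 h (95% counting interval 16.7 to 243), 20.1 at 12 h (6.53 to 100.2) and 20.3 at 72 h (6.46 to 103.0). The ratio was 10.8 at osteogenic 3 h (3.36 to 54.98), 8.69 at osteogenic 12 h (2.65 to 44.99) and 8.13 at adipogenic 3 h (2.49 to 41.96). In the other osteogenic and adipogenic groups it was 1.97 to 2.80. On the log2(CPM + 1) scale, the change in chondrogenesis was 2.84, 1.71 and 1.65 (SE 0.32 each), with limma adjusted p of 1.23e-08, 5.91e-05 and 9.29e-05, higher in 3 of 3 samples each time. In osteogenesis it was 1.10 at 3 h (adjusted p 0.00560), which fell below the threshold size without the osteogenic 3 h replicate 3 (0.87), and 0.98 at 12 h (adjusted p 0.0119), which passed without the undifferentiated replicate 1 (1.07) or the osteogenic 12 h replicate 2 (1.10). In adipogenesis it was 0.90 at 3 h (adjusted p 0.0212), and 1.05 and past the threshold without the adipogenic 3 h replicate 3. Over 15 other settings, the osteogenic 12 h value passed in 5 and ran from 0.69 to 2.66. The adipogenic 3 h value passed in 4 and ran from 0.80 to 2.59. From 3 to 12 h of chondrogenesis Runx3 fell by 1.12, past the threshold here and in 10 of 15 other settings, and not without the chondrogenic 12 h replicate 3 (-0.86). The osteogenic step from 12 to 72 h was -0.75, and -1.06 and past the threshold without the osteogenic 72 h replicate 3. Chondrogenic exceeded adipogenic samples by 1.93, 1.47 and 1.48, and osteogenic samples by 1.74, 0.73 and 1.42, where the middle value (adjusted p 0.0725) did not pass. At 72 h the chondrogenic replicate 1 (1.03 CPM, 4 reads) lay below the osteogenic replicate 3 (1.05 CPM, 7 reads), so these groups overlapped. The 1.42 passed in 15 of 15 other settings and was 1.11 at the lowest with 1 library left out. The order of the means was undifferentiated (0.142 CPM), adipogenic 72 h (0.296), adipogenic 12 h (0.356), osteogenic 72 h (0.404), adipogenic 3 h (1.15), osteogenic 12 h (1.26), osteogenic 3 h (1.52), chondrogenic 72 h (2.85), chondrogenic 12 h (2.86) and chondrogenic 3 h (7.13). Every pair of neighbours overlapped except the last.

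Creb3l1 was measured with at least 1824 reads in every sample. It had 263, 278 and 277 CPM in the undifferentiated replicates. In chondrogenesis it had 709, 685 and 657 CPM at 3 h, 1851, 2378 and 1673 CPM at 12 h, and 2718, 1883 and 1935 CPM at 72 h. The chondrogenic 12 h and 72 h samples overlapped each other and lay above the rest of the series. Osteogenic samples had 344, 327 and 488 CPM at 3 h, 349, 384 and 360.1 CPM at 12 h, and 510.4, 512 and 455 CPM at 72 h. Adipogenic samples had 425, 380.3 and 395 CPM at 3 h, 983, 1013 and 962 CPM at 12 h, and 678, 662 and 353 CPM at 72 h. Every induced sample lay above the undifferentiated ones, with replicate 3 high in the osteogenic 3 h group and low in the adipogenic 72 h group.

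The log2 fold change of Creb3l1 over undifferentiated cells in chondrogenesis was 1.32, 2.83 and 2.97 (SE 0.18 each), with limma adjusted p of 2.88e-07, 7.06e-14 and 1.11e-14, higher in 3 of 3 samples each time. The 3 h value was 0.98 under median-ratio scaling, 0.94 under quantile normalization and 0.96 in edgeR, below the threshold in each. In adipogenesis it was 0.55 at 3 h (adjusted p 0.0116), 1.85 at 12 h (adjusted p 7.96e-10) and 0.99 at 72 h (adjusted p 3.73e-05). The 72 h value was 1.29 and past the threshold without the adipogenic 72 h replicate 3 and 1.0003 and past it without the undifferentiated replicate 2, and it was also past it under median-ratio scaling (1.18), quantile normalization (1.28) and in edgeR (1.14). In osteogenesis it was 0.48, 0.42 and 0.85, none past the threshold size. The 3 h value was 0.30 without the osteogenic 3 h replicate 3, and the 12 h value was -0.07 under quantile normalization. From 3 to 12 h Creb3l1 rose by 1.51 in chondrogenesis and by 1.30 in adipogenesis, both past the threshold, and changed by -0.06 in osteogenesis. From 12 to 72 h of adipogenesis it fell by 0.86. The fall was 0.56 without the adipogenic 72 h replicate 3 and 0.42 under median-ratio scaling, while without the adipogenic 72 h replicates 1 or 2 Creb3l1 fell by 1.03 or 1.01, past the threshold. Chondrogenic exceeded osteogenic samples by 0.84, 2.42 and 2.12 and adipogenic samples by 0.77, 0.98 and 1.99, the last 1.68 without the adipogenic 72 h replicate 3. The 3 h difference from osteogenic samples was 1.02 and past the threshold without the osteogenic 3 h replicate 3, and the 12 h difference from adipogenic samples was 1.02 without the chondrogenic 12 h replicate 1 and 1.09 without replicate 3. At 12 h osteogenic lay below adipogenic samples by a log2 difference of -1.44.

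The order of the Creb3l1 means was undifferentiated (273 CPM), osteogenic 12 h (364), osteogenic 3 h (386), adipogenic 3 h (400.2), osteogenic 72 h (493), adipogenic 72 h (564), chondrogenic 3 h (683), adipogenic 12 h (986), chondrogenic 12 h (1967) and chondrogenic 72 h (2179). Neighbours overlapped between osteogenic 12 h, osteogenic 3 h and adipogenic 3 h, between osteogenic 72 h, adipogenic 72 h and chondrogenic 3 h, and between the last pair, and were apart elsewhere.

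Hic1 had 8.88, 9.75 and 6.37 CPM in the undifferentiated replicates. In chondrogenesis it had 28.9, 25.7 and 27.9 CPM at 3 h, 26.9, 25.9 and 24.6 CPM at 12 h, and 24.6, 17.5 and 24.9 CPM at 72 h. All 9 lay above the undifferentiated samples, and groups of neighbouring times overlapped. Osteogenic samples had 16.1, 16.7 and 14.8 CPM at 3 h, 11.0, 9.87 and 10.5 CPM at 12 h, and 16.6, 22.8 and 23.4 CPM at 72 h. Adipogenic samples had 9.06, 9.91 and 7.44 CPM at 3 h, 25.7, 22.6 and 20.7 CPM at 12 h, and 20.7, 17.6 and 23.4 CPM at 72 h. Only the adipogenic 3 h group overlapped the undifferentiated samples.

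The log2 fold change of Hic1 over undifferentiated cells was 1.63, 1.54 and 1.32 (SE 0.18 each) in chondrogenesis, with limma adjusted p of 6.28e-09, 2.74e-08 and 3.19e-07, higher in 3 of 3 samples each time. In adipogenesis it was 0.08, 1.38 and 1.22, with adjusted p of 0.766, 2.26e-07 and 1.61e-06. In osteogenesis it was 0.87, 0.31 and 1.23, with adjusted p of 0.000146, 0.155 and 1.73e-06. Under median-ratio scaling the adipogenic 3 h value was -0.14 and the osteogenic 12 h value 0.0098, and in edgeR the latter was -0.08. At 72 h all 3 lineages thus lay above undifferentiated cells by like amounts, and the differences between them were 0.11 (chondrogenic over adipogenic), 0.09 (chondrogenic over osteogenic) and 0.02 (osteogenic over adipogenic), with SE 0.18. Under median-ratio scaling the first was -0.11 and the last -0.31. Both also turned direction under quantile normalization and in edgeR. At 3 h chondrogenic exceeded adipogenic samples by 1.55 and at 12 h osteogenic samples by 1.22, both past the threshold. At 12 h osteogenic lay below adipogenic samples by a difference of -1.06, which was -0.99 and below the threshold size without the adipogenic 12 h replicate 1. From 3 to 12 h of adipogenesis Hic1 rose by 1.30 (adjusted p 8.28e-07). From 12 to 72 h of osteogenesis it rose by 0.92, which passed in 4 of 15 other settings, among them the fit without the osteogenic 72 h replicate 1 (1.07).

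From the lowest mean, Hic1 ran from undifferentiated (8.33 CPM) through adipogenic 3 h (8.80), osteogenic 12 h (10.5), osteogenic 3 h (15.9), adipogenic 72 h (20.6), osteogenic 72 h (20.9), chondrogenic 72 h (22.3), adipogenic 12 h (23.0) and chondrogenic 12 h (25.8) to chondrogenic 3 h (27.5). Osteogenic 3 h lay apart from its neighbours on either side, and all other neighbours overlapped.

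**Figure D2:**
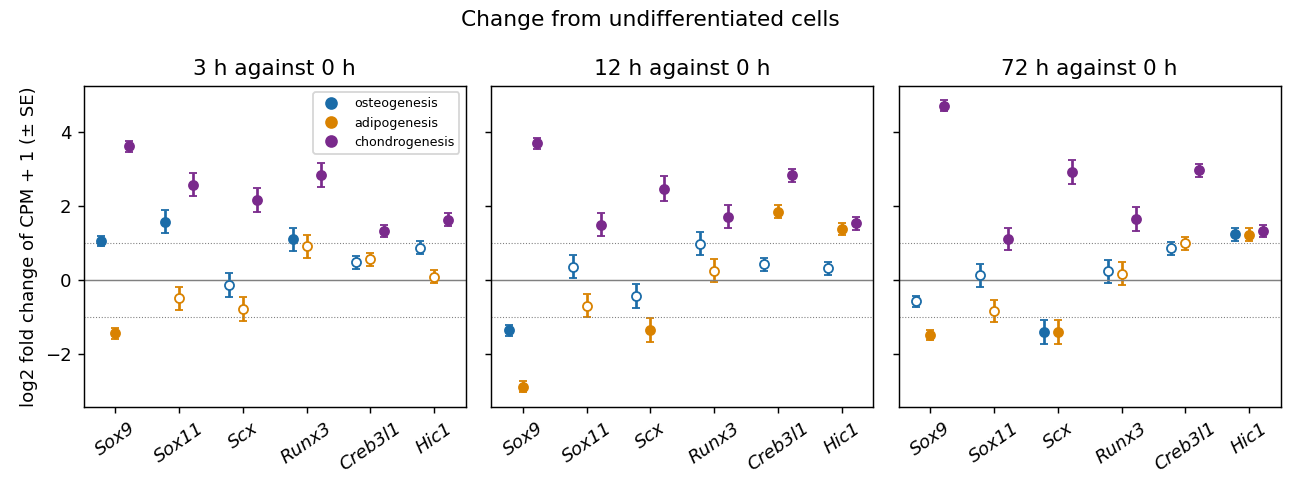
Log2 fold change of CPM + 1 from undifferentiated cells for the 6 genes at 3, 12 and 72 h, with bars of 1 SE. Filled points are past the threshold and open points are not. The filled chondrogenic point of Creb3l1 at 3 h (1.32) was below the threshold under the other scalings (0.94 to 0.98). The same held for the filled osteogenic point of Sox9 at 3 h (1.05, and 0.81 under median-ratio scaling). The filled chondrogenic point of Sox11 at 72 h (1.11) passed in 11 of 15 other settings and was 0.73 with thinned reads. The 18 chondrogenic points are filled and above 1.

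Counted over steps within a lineage, 2 of 6 genes passed from 3 to 12 h of osteogenesis (Sox9 and Sox11, lower), against 7.82% of all genes, and 1 without the osteogenic 12 h replicate 2, in a fit on the samples compared or with thinned reads. From 12 to 72 h of osteogenesis limma called 0 of 6, against 23.2% of all genes, with 5 of 6 at an unadjusted p under 0.05 and 3 of 6 called by edgeR. This count was 1 without the osteogenic 12 h replicates 2 or 3 or the osteogenic 72 h replicates 1 or 2, and 2 without the osteogenic 72 h replicate 3. In adipogenesis 3 of 6 passed from 3 to 12 h (Creb3l1 and Hic1 higher, Sox9 lower), against 12.9%, and 1 of 6 from 12 to 72 h (Sox9, higher), against 16.0%, which was 2 without the adipogenic 72 h replicates 1 or 2. In chondrogenesis 3 of 6 passed from 3 to 12 h (Creb3l1 higher, Sox11 and Runx3 lower), against 7.68%. This count was 1 under quantile normalization and with a pseudocount of 0.1, and 2 under median-ratio scaling, in edgeR and with thinned reads. From 12 to 72 h of chondrogenesis 1 of 6 passed (Sox9, higher), against 13.2%, and the count was 0 without the chondrogenic 12 h replicate 3 or the chondrogenic 72 h replicate 1.

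Comparisons between lineages at the same time ask which differences belong to the medium rather than to time alone. Chondrogenic exceeded adipogenic samples in 5 of 6 genes at 3 h (all but Creb3l1), against 9.35% of all genes in either direction, in 4 of 6 at 12 h (Sox9, Sox11, Scx and Runx3), against 13.6%, and in 5 of 6 at 72 h (all but Hic1), against 25.5%. Chondrogenic exceeded osteogenic samples in 4 of 6 at 3 h (Sox9, Sox11, Scx and Runx3), against 7.31%, in 5 of 6 at 12 h (all but Runx3), against 16.0%, and in 4 of 6 at 72 h (Sox9, Scx, Runx3 and Creb3l1), against 19.6%. Osteogenic and adipogenic samples differed in 2 of 6 at 3 h (Sox9 and Sox11), against 7.66%, and in 4 of 6 at 12 h (Sox9 and Sox11 higher, Creb3l1 and Hic1 lower), against 13.2%. At 72 h limma called 0 of 6 between osteogenic and adipogenic samples, against 13.7%, with 2 of 6 at an unadjusted p under 0.05 and 1 of 6 called by edgeR. This count was 1 without the adipogenic 72 h replicate 3 or the osteogenic 72 h replicate 2.

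Whether a step in time differed between lineages was tested as well, a comparison chosen after the data had been seen. From 3 to 12 h, the step of chondrogenesis differed from that of adipogenesis in 2 of 6 genes, against 14.3% of all genes. For Sox9 the difference was 1.52 (log2, SE 0.20, limma adjusted p 1.18e-06), with steps of 0.08 in chondrogenesis and -1.45 in adipogenesis. For Hic1 it was -1.39 (adjusted p 0.00010), with steps of -0.09 and 1.30. Against osteogenesis 2 of 6 differed, where 14.1% of all genes did, with Sox9 at 2.50 and Creb3l1 at 1.57. Osteogenesis differed from adipogenesis in 2 of 6, against 11.1%, with Creb3l1 at -1.36 and Hic1 at -1.86. Each of these 6 differences was past the threshold in all 21 other settings. Others were called only in some settings. For osteogenesis against adipogenesis Sox9 was at -0.98, and past the threshold without the adipogenic 3 h replicates 1 (-1.06) or 2 (-1.0033), the adipogenic 12 h replicate 3 (-1.04) or the osteogenic 12 h replicates 1 (-1.06) or 2 (-1.09), and also under median-ratio scaling (-1.07), in edgeR (-1.02) and with thinned reads (-1.05). In the same comparison Sox11 at -1.03 passed without the osteogenic 3 h replicate 1 (-1.41) or the osteogenic 12 h replicate 3 (-1.32). For chondrogenesis against adipogenesis Scx was at 0.89, and 1.35 and past the threshold without the adipogenic 12 h replicate 1.

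From 12 to 72 h, chondrogenesis differed from adipogenesis in 1 of 6 genes, against 19.3% of all genes. This was Creb3l1 at 1.01 (SE 0.25, limma adjusted p 0.00234), which was below the threshold size under median-ratio scaling (0.77), quantile normalization (0.82) and edgeR (0.79). It was also below it without the adipogenic 72 h replicate 3 (0.70), the adipogenic 12 h replicate 2 (0.99), the chondrogenic 12 h replicates 1 (0.97) or 3 (0.90), or the chondrogenic 72 h replicate 1 (0.84). Chondrogenesis differed from osteogenesis in 2 of 6, against 22.5%. Scx was at 1.44 (adjusted p 0.0165), not past the threshold without the osteogenic 12 h replicate 1 (1.08) or the osteogenic 72 h replicate 1 (1.23). Hic1 was at -1.13 (adjusted p 0.000604), not past it without the chondrogenic 72 h replicate 2 (-0.97) or with thinned reads, and passed in 19 of 21 other settings. Osteogenesis differed from adipogenesis in 2 of 6, against 14.2%. Creb3l1 was at 1.30, and 0.99 without the adipogenic 72 h replicate 3. Hic1 was at 1.08, and below the threshold size without the adipogenic 72 h replicate 2 (0.98) or the osteogenic 72 h replicate 3 (0.9972), and under median-ratio scaling (0.82) or quantile normalization (0.82). Scx, at -0.93, was -1.39 and past the threshold without the adipogenic 12 h replicate 1, and -0.58 without the osteogenic 12 h replicate 1.

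The genes most like each of the 6 were found by Pearson correlation of the 10 group means of log2(CPM + 1) among tested genes, given as a description. Those for Sox9 were Scx (r = 0.956), Fam43b (0.953), Pdlim4 (0.939) and Sorbs2 (0.936), and those for Scx were Ubqln2 (0.965), Sox9 (0.956), Dusp27 (0.951) and Pdlim4 (0.9503). Pdlim4 was thus near both. Those for Sox11 were Dlk2 (0.976), Ppp1r14c (0.970), Tmem72 (0.945) and Tpst2 (0.925), and those for Runx3 were Gbx2 (0.979), Cyp2s1 (0.962), Dlk2 (0.915) and Ppm1j (0.912). Dlk2 was near both of these, with log2 fold changes of 5.40, 2.88 and 2.12 over undifferentiated cells at 3, 12 and 72 h of chondrogenesis and of 3.30, 1.52 and 1.0061 in osteogenesis, all past the threshold. For Creb3l1 they were Mid1 (0.935), Thbs3 (0.923), Muc1 (0.908) and Kif1a (0.907), and for Hic1 Afmid (0.826), Rabep2 (0.818), Rbm20 (0.813) and Tab2 (0.794). Among the 6 genes themselves, r ran from 0.305 (Sox11 and Creb3l1) to 0.956 (Sox9 and Scx), and Hic1 came closest to Creb3l1 (0.728). The 10 points share their libraries, and many levels lie near 0 in Sox11, Runx3 and several named genes. Group means ran from 0.142 to 0.920 CPM in Afmid and from 0.0522 to 1.29 CPM in Mid1, and were 0 in 6 groups for Fam43b and in 5 for Dusp27. Of the 22 genes named, 16 pass the filter without the chondrogenic samples. Fam43b, Ppp1r14c, Dusp27, Gbx2, Mid1 and Muc1 do not, so their likeness rests in part on the filter.

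Families and pathways of the 6 genes were followed through lists, with counts for chondrogenesis against undifferentiated cells at 3, 12 and 72 h. Among all tested genes 13.1%, 9.44% and 11.6% were higher and 4.88%, 4.997% and 6.37% lower at these times. Their median log2 fold changes were 0.21, 0.11 and 0.01. Scaling moved these shares. Under median-ratio scaling, quantile normalization and edgeR, 8.27% to 10.3% were higher at 3 h, 6.23% to 7.59% at 12 h and 10.2% to 12.6% at 72 h, and 7.40% to 10.1%, 6.56% to 9.70% and 6.85% to 8.98% were lower. Of 12 Sox genes and of 5 Runx genes and partners, 3 and 1 were tested, and those past the threshold were Sox9, Sox11 and Runx3 at each time. Sox8, the third tested Sox gene, changed by 0.39, 0.07 and 0.42. Of the Creb3 family and stress factors of the endoplasmic reticulum, 4 of 11 were tested and 1, 2 and 1 were higher, with medians of 0.53, 0.84 and 0.35. Creb3l1 was in each count, and Hspa5, a chaperone, passed at 12 h (1.12), though not under median-ratio scaling, quantile normalization or edgeR.

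Genes for the transport of procollagen, a process in which Creb3l1 acts, were tested in 11 of 23 cases. The counts of higher genes were 1, 6 and 2, beside 13.1%, 9.44% and 11.6% of all tested genes, with medians of 0.21, 1.20 and 0.16. The 3 h count was near the share of all genes. At 12 h these were P3h1 (1.87), Sec24d (1.71), Fkbp14 (1.55), Sec13 (1.53), Sec23a (1.29) and Serpinh1 (1.20), the last not past the threshold under the 3 other scalings. At 72 h P3h1 (1.46) and Sec24d (1.27) passed. The single gene at 3 h, Sec13 (1.10), passed under none of the other scalings.

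Of 35 genes of cartilage matrix and chondrocytes, 8 were tested, with 5 higher at 72 h. At 3 and 12 h limma and edgeR each called 0 of 8, with 3 and 2 at an unadjusted p under 0.05 in limma. The medians were 0.18, 0.00 and 2.13. At 72 h the 5 were Comp (4.43), Col9a2 (3.96), Matn4 (3.06), Col9a3 (2.35) and Susd5 (1.90). The filter let in 2 of these 8 genes, Comp and Susd5, through chondrogenic samples alone. Of the 6 that pass it without them, 3 were higher at 72 h, and with no filter 5 of 23 were, a comparison added after the data had been seen. Sox9 was already past the threshold at 3 h. Of 9 hypertrophy genes only Mmp13 was tested, with changes of -0.72, -1.16 and -0.42, none past the threshold in limma, though the 12 h change had an unadjusted p under 0.05 and passed in edgeR.

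Of 32 tendon genes and partners of Scx, 8 were tested, and 2, 3 and 4 were higher, beside 13.1%, 9.44% and 11.6% of all genes. At each time 1 was lower, beside 4.88%, 4.997% and 6.37% of all genes, with medians of 0.32, 0.42 and 0.75. Beside Scx these were Col5a1 (1.85, 2.46 and 1.16), Postn (1.79 at 12 h and 5.47 at 72 h), Tnmd (1.28 at 72 h) and, lower, Lum (-3.20, -3.73 and -2.40). The 72 h value of Col5a1 did not pass under quantile normalization, and Tnmd passes the filter through chondrogenic samples alone.

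Among inputs of the TGF-beta and BMP pathways 7 of 36 were tested. The counts were 3, 1 and 3 higher and 3, 3 and 2 lower, with medians of 0.38, -0.51 and 0.05. Gdf6, a BMP-type ligand, changed by 3.76, 4.36 and 2.12, Tgfb1 by 1.06, 0.97 (short of the threshold) and 1.84, and Bambi by 1.84 at 72 h. Lower were the receptors Tgfbr3 (-1.48, -2.74 and -3.53) and Acvr2b (-1.53, -1.18 and -1.08), and the ligand gene Inhbb at 3 and 12 h (-1.14 and -2.22). Tgfb1 at 3 h did not pass under the other scalings. Of 23 response genes of TGF-beta, 8 were tested, 4, 5 and 4 were higher and 2 were lower at 3 h and at 12 h, with medians of 1.40, 1.31 and 0.91. Tgfbi changed by 1.94, 3.40 and 6.62, Tsc22d1 by 2.02, 2.05 and 2.97, and Ctgf by 1.95, 1.16 and 1.07, the last 2 of which did not pass under some scalings. Klf10 changed by 1.45 at 12 h and 2.52 at 72 h, Tagln by 2.28 and 2.34 at 3 and 12 h, and Id2 by -2.78 and -3.30 at 3 and 12 h. In osteogenesis 2 of the 8 response genes were higher and 1 lower at 3 h, where Ctgf and Tagln rose as in chondrogenesis and Tagln as in adipogenesis too, 1 was higher and 4 lower at 12 h, and 2 were higher and 1 lower at 72 h. Beside these, 11.7%, 14.7% and 7.20% of all tested genes were higher and 6.67%, 7.15% and 5.29% lower. The 3 h counts became 1 and 2 under each other scaling and in edgeR. In adipogenesis 1 of the 8 response genes was higher and 4 lower at 3 h, 4 were lower at 12 h, and 1 was higher and 6 lower at 72 h, where 12.4%, 8.14% and 6.19% of all tested genes were higher and 6.42%, 5.55% and 9.08% lower at the 3 times. Under the other scalings and edgeR 7.15% to 12.2% of all genes were lower over these 3 comparisons. None of the response genes called in adipogenesis turned direction there, and 5 of the 8 were lower at 3 h and 4 or 5 at 72 h.

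Of 15 osteogenic markers 4 were tested, with 1 higher at each time, Ibsp (1.20, 1.93 and 6.10), and 1 lower at 72 h, Dlx3 (-1.80). The medians were 0.55, 0.13 and 0.44, and Ibsp at 3 h did not pass under median-ratio scaling. These medians include Phex, which passes the filter through chondrogenic samples alone. With no filter, 2 of 10 were higher at 72 h. Of 16 adipogenic markers 6 were tested, with 1, 2 and 1 higher and 1 lower at each time. Fasn was higher (2.17, 2.42 and 1.36), Lpl lower (-1.54, -3.05 and -5.59) and Lep, which passes the filter through chondrogenic samples alone, higher at 12 h (1.25), and the medians were 0.00, -0.01 and -0.10.

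Promoters are shown for genes that were all higher in chondrogenesis than in undifferentiated cells, though their steps after 3 h differed, so that the letters can be read beside the levels. RefSeq promoter entries (GRCr8) were available for 4 of the 6 genes, Creb3l1, Runx3, Sox11 and Hic1. Sox9 and Scx had no entry. The 250 bases before the start were searched on both strands for CAGAC (bound by SMAD proteins), CANNTG (E-box), TGANTCA (AP-1), TGTGGT (Runx), TGTTCT (part of the site of the glucocorticoid receptor) and TATAAA (known as the TATA box), and capitals mark every match. The sequences are given 5′ to 3′ on the strand of the gene, for Creb3l1 at chr3:98449105-98449354 (minus strand), Runx3 at chr5:152644020-152644269 (plus strand), Sox11 at chr6:49738795-49739044 (minus strand) and Hic1 at chr10:60517813-60518062 (minus strand).
Creb3l1: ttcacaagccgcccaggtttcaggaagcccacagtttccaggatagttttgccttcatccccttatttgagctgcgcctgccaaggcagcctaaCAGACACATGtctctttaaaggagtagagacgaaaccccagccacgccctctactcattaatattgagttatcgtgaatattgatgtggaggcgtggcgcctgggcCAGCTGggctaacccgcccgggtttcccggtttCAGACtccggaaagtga
Runx3: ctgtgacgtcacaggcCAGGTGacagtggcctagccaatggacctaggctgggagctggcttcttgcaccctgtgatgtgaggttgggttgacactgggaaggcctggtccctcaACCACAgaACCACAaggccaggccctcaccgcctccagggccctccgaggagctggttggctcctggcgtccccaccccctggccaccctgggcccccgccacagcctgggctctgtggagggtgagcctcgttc
Sox11: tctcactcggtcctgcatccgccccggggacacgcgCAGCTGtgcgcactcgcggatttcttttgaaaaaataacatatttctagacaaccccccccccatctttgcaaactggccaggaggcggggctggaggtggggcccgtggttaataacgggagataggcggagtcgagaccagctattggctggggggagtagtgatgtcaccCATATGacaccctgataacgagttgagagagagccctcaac
Hic1: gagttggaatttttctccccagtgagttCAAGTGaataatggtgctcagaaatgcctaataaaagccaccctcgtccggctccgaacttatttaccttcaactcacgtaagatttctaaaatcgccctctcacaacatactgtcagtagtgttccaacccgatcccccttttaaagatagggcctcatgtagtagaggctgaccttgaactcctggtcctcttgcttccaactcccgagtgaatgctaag

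Creb3l1 held 2 matches of CAGAC and 2 of CANNTG, and its first CAGAC shared 1 base with the CACATG that follows. Runx3 held 2 of TGTGGT, both read as ACCACA on the strand shown, and 1 of CANNTG, while its second RefSeq entry held none of the 6 motifs. Sox11 held 2 of CANNTG and Hic1 held 1. Of all 33469 promoters of this length, 65.5% held CANNTG, 42.9% CAGAC, 14.5% TGTGGT, 17.5% TGTTCT, 12.9% TATAAA and 6.34% TGANTCA. A match describes the letters only.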

How the data were processed

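RNA was measured by sequencing in 30 samples. Trimmomatic, HISAT2 and StringTie are named by the authors, with no versions, genome build or counting strand. The deposited values are named FPKM and were treated as CPM (reads scaled to a common total) made by the authors, because in each sample every value was a whole multiple of 1 step, within 0.05, the same for all genes. The authors do not state this unit. Values of the same gene name were summed. The 4363 genes that reached 1 CPM in 3 or more samples went into limma 3.58.1 (trend, R 4.3.3) on log2(CPM + 1), 1 model of 10 groups, with the Benjamini-Hochberg adjustment. Contrasts were each group with 0 h, each time point with the one before, and lineages at the same time. Differences between lineages in a step were added, with their alternatives, after the data had been seen.

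The genes and lists were chosen with earlier results of these data known. The planned list of Hic1 targets and progenitor markers is not reported here. From each list at most 6 genes are named, those past the threshold in chondrogenesis at the most times, ties by the 72 h change. For each of the 6 genes, the 4 most correlated tested genes are named. Bop1 was added for its overlap with Scx after the files had been opened, and Sox8 was chosen after its values were seen. Counting intervals are exact at 95%.

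Alternatives were a pseudocount of 0.1, no filter, median-ratio scaling, quantile normalization, a fit on the samples compared, a replicate block, edgeR 4.0.16 (TMM, quasi-likelihood), same-name values apart, each replicate left out, and reads thinned to the lowest total (added after the data had been seen, as was a filter without the chondrogenic samples for the lists). Python 3.11.15 and pandas 2.3.3 were used. On simulated reads with 200 changed genes, limma found 135 with 0 false calls and edgeR 163 with 1.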

Additional observations from a re-analysis of the deposited data

Results flagged for a closer look

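Each result here is a difference between lineages that passed limma's threshold when the difference itself was tested, as a log2 difference. For Sox9, chondrogenic over adipogenic samples gave 5.07, 6.60 and 6.22 at 3, 12 and 72 h, chondrogenic over osteogenic samples 2.57, 5.07 and 5.30, and osteogenic over adipogenic samples 2.50 at 3 h and 1.53 at 12 h. Changes of Sox9 from undifferentiated cells past the threshold were opposite in chondrogenesis and adipogenesis at all 3 times, in chondrogenesis and osteogenesis at 12 h, and in osteogenesis and adipogenesis at 3 h. This last rests on an osteogenic rise of 1.05, which was below the threshold under median-ratio scaling (0.81), quantile normalization (0.69) and in edgeR (0.82). At 72 h of osteogenesis Sox9 was also lower (-0.58), short of the threshold size. Without the adipogenic 72 h replicate 3 the 72 h value was 6.32, and without the adipogenic 12 h replicate 1 the 12 h value was 6.63.

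For Scx, chondrogenic over adipogenic samples gave 2.96, 3.85 and 4.35, and chondrogenic over osteogenic samples 2.31, 2.91 and 4.35. Changes from undifferentiated cells past the threshold were opposite at 12 and 72 h against adipogenesis and at 72 h against osteogenesis. The adipogenic 12 h group held 11 reads, all in replicate 1, and its change did not pass in the fit on the samples compared (adjusted p 0.0593, in a range from 2.90e-05 to 0.0593). Without the adipogenic 12 h replicate 1 the 12 h value was 4.31, and without the adipogenic 72 h replicate 3 the 72 h value was 4.43.

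For Sox11, chondrogenic over adipogenic samples gave 3.08, 2.20 and 1.95, chondrogenic over osteogenic samples 1.0003 at 3 h and 1.15 at 12 h, and osteogenic over adipogenic samples 2.08 at 3 h and 1.05 at 12 h. The 1.0003 was 0.62 without the osteogenic 3 h replicate 1, 0.89 without the chondrogenic 3 h replicate 1 and 0.94 without its replicate 2, the 1.15 was 0.89 without the osteogenic 12 h replicate 2, and the 1.05 was 0.76 without the osteogenic 12 h replicate 3 and 0.98 without the adipogenic 12 h replicate 2. Under median-ratio scaling the 1.0003 was 0.90 and the 1.05 was 0.96, both below the threshold size. For Runx3, chondrogenic over adipogenic samples gave 1.93, 1.47 and 1.48, and chondrogenic over osteogenic samples 1.74 at 3 h and 1.42 at 72 h. The 1.42 was 1.11 at the lowest with 1 library left out, and chondrogenic and osteogenic samples overlapped in range at that time.

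For Creb3l1, chondrogenic over adipogenic samples gave 1.99 at 72 h (1.68 without the adipogenic 72 h replicate 3), chondrogenic over osteogenic samples 2.42 at 12 h and 2.12 at 72 h, and osteogenic over adipogenic samples -1.44 at 12 h. For Hic1, chondrogenic over adipogenic samples gave 1.55 at 3 h, chondrogenic over osteogenic samples 1.22 at 12 h, and osteogenic over adipogenic samples -1.06 at 12 h, or -0.99 without the adipogenic 12 h replicate 1.

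Steps in time that differed between lineages were tested after the data had been seen. From 3 to 12 h, Sox9 differed by 1.52 (chondrogenesis minus adipogenesis) and 2.50 (chondrogenesis minus osteogenesis), Creb3l1 by 1.57 (chondrogenesis minus osteogenesis) and -1.36 (osteogenesis minus adipogenesis), and Hic1 by -1.39 (chondrogenesis minus adipogenesis) and -1.86 (osteogenesis minus adipogenesis). From 12 to 72 h, Scx differed by 1.44 and Hic1 by -1.13 (chondrogenesis minus osteogenesis), Creb3l1 by 1.01 (chondrogenesis minus adipogenesis) and 1.30 (osteogenesis minus adipogenesis), and Hic1 by 1.08 (osteogenesis minus adipogenesis). Without the adipogenic 72 h replicate 3 the Creb3l1 values were 0.70 and 0.99, both below the threshold size. The first was also below it under median-ratio scaling (0.77), quantile normalization (0.82) and edgeR (0.79), and without the adipogenic 12 h replicate 2 (0.99), the chondrogenic 12 h replicates 1 (0.97) or 3 (0.90) or the chondrogenic 72 h replicate 1 (0.84). Without the osteogenic 12 h replicate 1 Scx was at 1.08, without the osteogenic 72 h replicate 1 at 1.23, and without the chondrogenic 72 h replicate 2 the Hic1 value of -1.13 was -0.97, none of them past the threshold. With thinned reads this Hic1 value did not pass either. Without the adipogenic 72 h replicate 2 the last Hic1 value was 0.98, and without the osteogenic 72 h replicate 3 it was 0.9972. Median-ratio scaling and quantile normalization each brought it to 0.82.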

How the results depend on the processing

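Over 180 log2 fold changes and differences of the 6 genes, the direction and the side of the threshold were the same for all 180 without a filter, with the replicate block and with same-name values apart, 177 in the fit on the samples compared, 161 with a pseudocount of 0.1, 160 under quantile normalization, 160 with thinned reads, 159 under median-ratio scaling and 152 in edgeR. Of the values with 1 library left out, 1184 were the same, 50 turned direction, 35 came past the threshold and 27 fell below it. None of the values that turned had an adjusted p under 0.05 in the setting where it turned. The cause was not tested. Counts of all genes past the threshold stayed within 1.5 times in every setting.

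With the replicate block 784 genes passed in chondrogenesis at 3 h, and 785 without. In 0 of 45 pairs of groups did all same-numbered replicates correlate above 0.1 (mean -0.008, against 0.0039 for other numbers).

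The number of the 6 genes past the threshold moved by over 1.5 times as follows. Smaller moves in settings with all libraries were of 1 gene each. In edgeR it was 2 at osteogenic 12 h (1 in limma), 3 at adipogenic 3 h (1) and 5 at adipogenic 72 h (3) against 0 h, 3 in the osteogenic step from 12 to 72 h (0), and 1 between osteogenic and adipogenic at 72 h (0). With a pseudocount of 0.1 it was 2 at osteogenic 12 h, 2 at adipogenic 3 h, 2 in that osteogenic step and 1 between osteogenic and adipogenic at 72 h, and the chondrogenic step from 3 to 12 h gave 1 (3). Quantile normalization gave 2 at osteogenic 12 h, 3 in the osteogenic step from 12 to 72 h and 1 in the chondrogenic step from 3 to 12 h. Median-ratio scaling gave 1 in the osteogenic step. Thinned reads gave 3 at adipogenic 3 h, 1 in the osteogenic step from 3 to 12 h (2), as did the fit on the samples compared (1), and 1 in that from 12 to 72 h. For differences between steps from 12 to 72 h, chondrogenesis minus adipogenesis gave 0 (1) in edgeR, median-ratio scaling and quantile normalization, chondrogenesis minus osteogenesis 1 (2) with thinned reads, and osteogenesis minus adipogenesis 1 (2) under median-ratio scaling and quantile normalization. With 1 library left out the counts ran from 1 to 2 at osteogenic 12 h and adipogenic 3 h, 3 to 5 at adipogenic 72 h, 1 to 2 and 0 to 2 in the osteogenic steps, 1 to 2 in the adipogenic and 0 to 1 in the chondrogenic step from 12 to 72 h, 0 to 1 between osteogenic and adipogenic at 72 h, and 0 to 1, 1 to 2 and 1 to 3 in the differences between steps.

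Values that turned direction, against 0 h, were these. At osteogenic 72 h Sox11 was -0.15 with thinned reads. At osteogenic 12 h Creb3l1 was -0.0725 under quantile normalization and Hic1 -0.08 in edgeR. At adipogenic 3 h Hic1 was -0.14 under median-ratio scaling, -0.061 under quantile normalization and -0.20 in edgeR. With 1 library left out, Sox11 ran from -0.0554 to 0.33 and Runx3 from -0.0793 to 0.44 at osteogenic 72 h, Scx from -0.43 to 0.0714 at osteogenic 3 h, and Hic1 from -0.0803 to 0.19 at adipogenic 3 h.

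In steps, Scx from adipogenic 12 to 72 h was 0.70 with a pseudocount of 0.1 and 0.0855 under median-ratio scaling. Runx3 in that step was 0.0071 under median-ratio scaling, 0.10 in edgeR and 0.0548 with thinned reads, and Hic1 was 0.27 under median-ratio scaling, 0.22 under quantile normalization and 0.22 in edgeR. Runx3 from chondrogenic 12 to 72 h was 0.0879 under median-ratio scaling and 0.21 in edgeR. Hic1 from chondrogenic 3 to 12 h was 0.0074 under median-ratio scaling, 0.11 under quantile normalization and 0.0035 in edgeR. With 1 library left out, Sox9 and Runx3 ran from -0.0126 to 0.16 (chondrogenic, 3 to 12 h) and -0.34 to 0.11 (osteogenic, 3 to 12 h), Creb3l1 from -0.17 to 0.12 (osteogenic, 3 to 12 h) and -0.0274 to 0.29 (chondrogenic, 12 to 72 h), Sox11 from -0.49 to 0.0619 (osteogenic, 12 to 72 h), Scx from -0.28 to 0.41 (adipogenic, 12 to 72 h), and Runx3 from -0.21 to 0.10 (adipogenic) and -0.37 to 0.34 (chondrogenic, 12 to 72 h).

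Between lineages, Hic1 at 72 h was -0.11, -0.26 and -0.0743 (chondrogenic over adipogenic) and -0.31, -0.29 and -0.25 (osteogenic over adipogenic) under median-ratio scaling, quantile normalization and edgeR, and with thinned reads -0.0692 for the latter and -0.0046 for chondrogenic over adipogenic at 12 h. For osteogenic over adipogenic at 72 h, Runx3 was -0.0007 under median-ratio scaling and Scx 0.00 with thinned reads. With 1 library left out, osteogenic over adipogenic ran from -0.14 to 0.21 (Scx), -0.25 to 0.27 (Runx3), -0.45 to 0.0251 (Creb3l1) and -0.0866 to 0.17 (Hic1) at 72 h and from -0.033 to 0.42 (Runx3) and -0.25 to 0.0346 (Creb3l1) at 3 h, and chondrogenic over osteogenic Hic1 from -0.0619 to 0.25 at 72 h.

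In differences between steps, Sox11 was -0.0313 with thinned reads (chondrogenesis minus osteogenesis, 3 to 12 h), 0.43 with a pseudocount of 0.1 and 2.42 in edgeR (chondrogenesis minus adipogenesis, 12 to 72 h), and 0.56 with a pseudocount of 0.1, 0.0047 under median-ratio scaling and 2.48 in edgeR (osteogenesis minus adipogenesis, 12 to 72 h). For chondrogenesis minus adipogenesis, Scx from 12 to 72 h was -0.22 with a pseudocount of 0.1, Runx3 from 3 to 12 h was 0.14 with a pseudocount of 0.1 and 0.47 in edgeR, Runx3 from 12 to 72 h was -0.0719 under quantile normalization and -0.10 with thinned reads, and Hic1 from 12 to 72 h was 0.0436 with thinned reads. With 1 library left out, Sox11 ran from -0.11 to 0.52, -0.46 to 0.10 and -0.34 to 0.21 (chondrogenesis minus osteogenesis in both steps, osteogenesis minus adipogenesis in the later), Scx from -0.071 to 0.75 (osteogenesis minus adipogenesis, 3 to 12 h), Runx3 from -0.29 to 0.42 and Hic1 from -0.16 to 0.11 (chondrogenesis minus adipogenesis, 12 to 72 h).

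Scaling moved the split of all called genes by direction. In chondrogenesis against 0 h at 3 h, 572 of 785 were higher, and 368 of 691 under median-ratio scaling, 361 of 695 under quantile normalization and 451 of 893 in edgeR. At 12 h it was 412 of 630, and 272 of 590, 293 of 579 and 331 of 754. In each induced group at 3 and 12 h the share of higher genes fell by over 10 points under each of these settings.

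The chondrogenic 72 h samples had the fewest reads, and Sox11 there was 0.73 (1.11) with reads thinned to the lowest total. At 0 to 8 reads, as for Sox11, Runx3 and Scx in many samples, differences near the floor of 3 reads could not be measured. With 1 library left out, a group of 2 samples is assumed to vary like the others. All comparisons with 0 h share the same 3 samples, and no uninduced cells were sampled at later times. The 6 genes were named with earlier results of these data known, so their counts are no estimate for other genes. Bulk RNA does not separate levels per cell from the mix of cells. Where Scx and Bop1 overlap, their reads may not be separable, as the counting strand is not stated. Sources differ on the library, with removal of ribosomal RNA and a strand-marking step in the sample labels and an mRNA kit in the published methods.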
